A study of Mus musculus with 5 samples.

Results

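The genes described here encode the proteins of the cytosolic ribosome. They were taken by name from a table of 25549 gene models: 89 rows whose symbol began with Rpl or Rps and a digit, or was Rplp0, Rplp1, Rplp2 or Rpsa, leaving out 183 rows named as pseudogenes and 10 rows for S6 kinases and their relatives. The RNA was that of mast cells derived from mouse bone marrow by 6 to 8 weeks of culture with interleukin-3 at 50 ng/mL; the labels name no other treatment of the cells. All mice were C57BL/6, and the groups were matched for age and sex, although the labels give neither. The 2 control samples were Cpa3-Cre: Cre recombinase under control of Cpa3, a carboxypeptidase gene active in mast cells. The 3 other samples were Cpa3-Cre;miR-9∆fl/∆fl, for short the miR-9 line, so both groups carry the Cre. Neither the effect of the recombined allele on miR-9 nor the number of mice behind a group is stated, so the spread that the p-values rest on could be technical alone. The stated depth was about 70000000 paired 50-base reads per sample, from heparinase-treated total RNA with ribosomal RNA removed. Values per library could not be tied to samples by name and were not used, so every result is a fold change or a p-value of the authors' deposited table, or is computed from them, and positive values mean higher in the miR-9 line.

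A cytosolic ribosome has a small subunit (40S), which binds the mRNA and decodes it, and a large subunit (60S), which joins amino acids and releases the chain through an exit tunnel. Ribosomal proteins are made in balance with each other, and their mRNAs are among the most abundant in a growing cell. Most of these mRNAs begin with a run of pyrimidines, the 5' terminal oligopyrimidine (TOP) motif, through which the mTOR kinase and the RNA-binding protein Larp1 control their translation. Such control acts on translation, which a measurement of mRNA does not show.

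Many of these genes have a run of pyrimidines near an annotated start. The windows printed here run from 10 bases before to 19 after the start that RefSeq annotates (GRCm38.p6), and capitals mark the longest run of pyrimidines that opens with C. Such a run of at least 6 bases was present in 30 of 56 windows, and the genes shown come from these; they were chosen, after their values were seen, to span the members from high to low fold change, so they do not show how common the run is. Each window lies around a RefSeq start, which need not be the start of the deposited model: the 2 were 1947 bases apart for Rps2, 2614 for Rpl18 and 1385 for Rps10, inside the model in each case, and from 33 to 493 bases apart for the other genes shown except Rpl10a, where they coincide.
Rps2: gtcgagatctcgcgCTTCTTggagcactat
Rpl10a: gCCCCCCCagcggccgcaaactgcagcgcc
Rpl18: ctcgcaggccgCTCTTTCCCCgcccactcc
Rpl28: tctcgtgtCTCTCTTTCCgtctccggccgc
Rpl15: agaaagCCTTCTTCCTTTCCTCTggcggca
Rpl35: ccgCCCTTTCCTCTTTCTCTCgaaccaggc
Rps18: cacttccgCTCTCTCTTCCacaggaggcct
Rps6: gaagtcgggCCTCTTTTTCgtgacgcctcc
Rps10: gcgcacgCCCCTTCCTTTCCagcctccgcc
Rps27: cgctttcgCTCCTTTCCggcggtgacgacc
On the plus strand these windows are chr17:24720053-24720082 (Rps2), chr17:28328461-28328490 (Rpl10a), chr7:45718061-45718090 (Rpl18) and chr7:4792955-4792984 (Rpl28). On the minus strand they are chr14:18270967-18270996 (Rpl15), chr2:39005112-39005141 (Rpl35), chr17:33955646-33955675 (Rps18), chr4:86857348-86857377 (Rps6), chr17:27635225-27635254 (Rps10) and chr3:90213629-90213658 (Rps27). Rps2, with the highest fold change of the 40S and 60S genes, showed a run of only 6 bases in its window, and Rps27, with the lowest, a run of 9. In Rpl10a, the second highest, the run of 7 lies before the annotated start. None of the runs shown opens at the annotated start base itself, but the runs of Rps15a and Rpl38, not shown, do, with 8 bases each. How often such a run occurs in the same window of all genes was not computed.

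Across the family most values were slightly positive and lay close together, and no single gene passed the test. Of the 89 rows, 86 had a p-value of the authors' deposited table, and 70 of these had positive values and 16 negative ones. Among all 24071 rows with a p-value, 40.2 percent were positive in the authors' deposited table. The median log2 fold of the 86 was 0.13 in the authors' deposited table, a ratio of 1.09, where the median of all rows was -0.09. That median stood above 73.0 percent of all rows. The quartiles of the family were 0.04 and 0.20 and those of all rows -0.38 and 0.15, in values of the authors' deposited table. In bulk RNA, a change in the number of cells of a type and a change in RNA per cell cannot be told apart.

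None of the 86 was called at a Benjamini-Hochberg adjusted p under 0.05, in either direction, where 0.411 percent of all rows were called, 0.245 percent higher and 0.166 percent lower (computed here from the authors' deposited p-values, which the design text ascribes to DESeq2). The smallest adjusted p in the family was 0.760. At an adjusted p under 0.10 the count was 0 where 0.968 percent of all rows passed, and at an unadjusted p under 0.0001, the level the design text names, it was 0 where 0.299 percent passed. At an unadjusted p under 0.05 it was also 0, against 7.92 percent of all rows in the authors' deposited table, 3.87 percent higher and 4.05 percent lower. Below an unadjusted p of 0.2 there were 8 members, where 24.3 percent of all rows stood there. The folds were small: 66 of the 86 (76.7 percent) lay within 0.25 of 0 on the log2 scale of the authors' deposited table, against 48.3 percent of all rows.

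**Figure D1:**
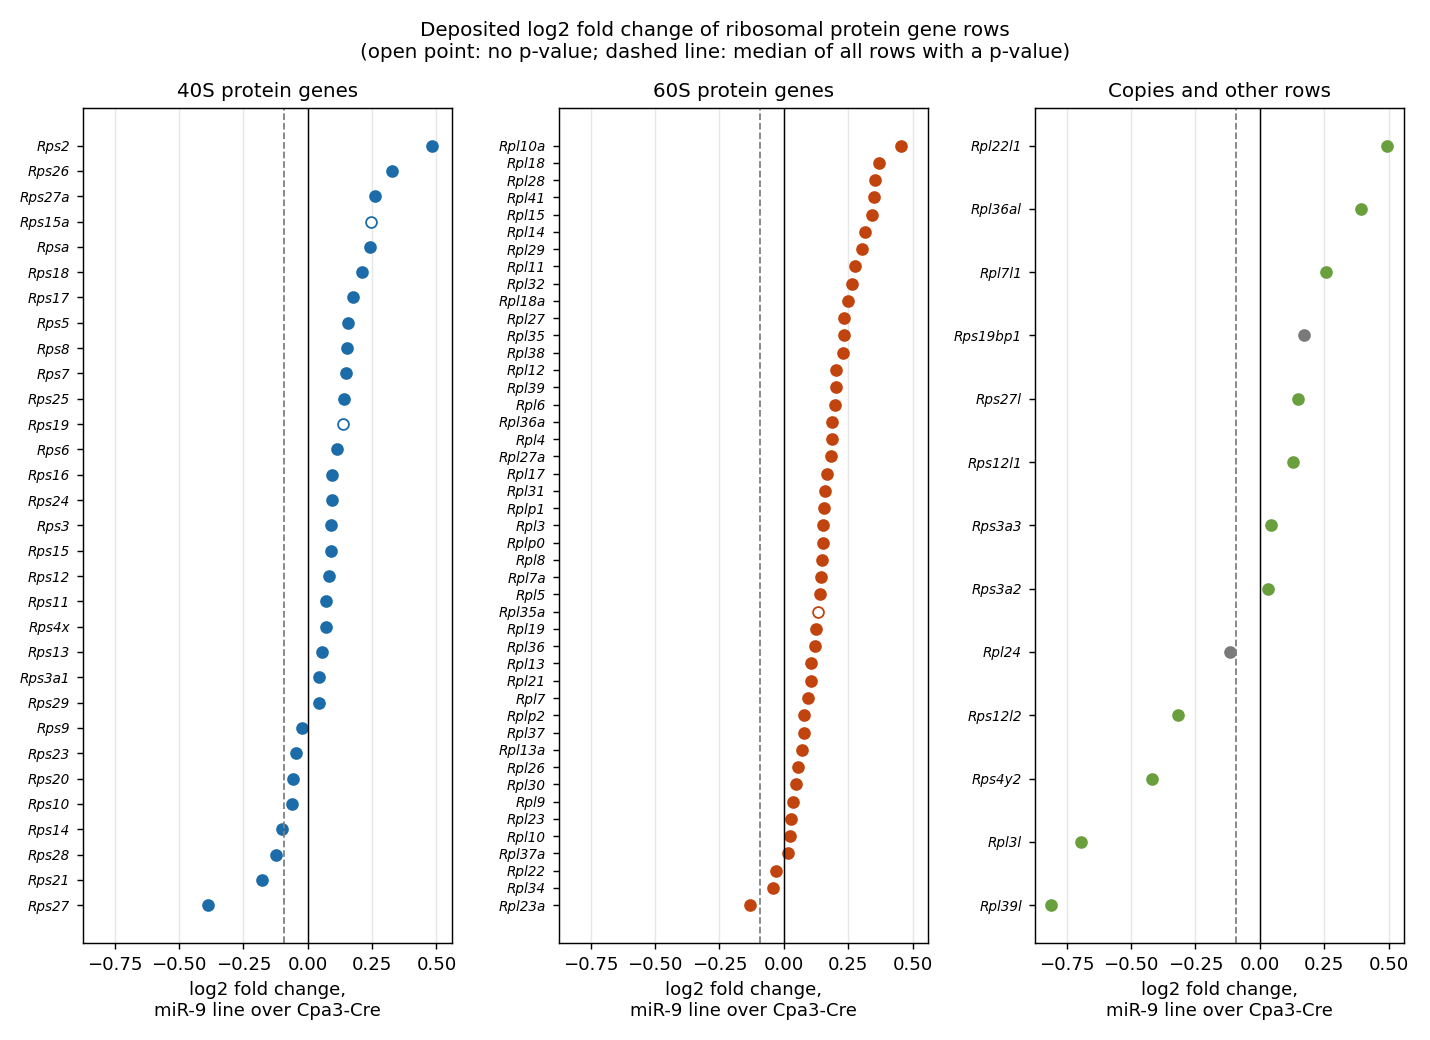
Log2 fold change of each of the 89 rows in the authors' deposited table (horizontal axis, miR-9 line over Cpa3-Cre), with genes in rows and 3 panels for 40S genes, 60S genes and the remaining rows. Each point is 1 row, open where the row has no p-value, and the dashed line is the median of all rows (-0.09); the 60S genes lie mostly right of 0, and the copies spread from -0.81 to 0.50.

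How precisely each fold is known depends on an error that the table does not give. If the deposited p-value is that of a two-sided Wald test, which no source used here states, fold and p together imply a standard error. For the family it would have a median of 0.32 log2 units, from 0.18 for Rpl7l1 to 0.53 for Rpl39l. For Rplp0 the 95 percent interval would then run from -0.61 to 0.92 and for Rps2 from -0.22 to 1.19, both computed from the authors' deposited table. A common shift of the size of the family's median is thus smaller than the error that would belong to any 1 gene.

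The 89 rows were not all ribosomal protein genes when their positions were set beside GENCODE M21 (GRCm38). There were 31 genes of 40S proteins and 45 of 60S proteins at their own positions, 11 copies of ribosomal protein genes, and 2 rows of another kind. Rps19bp1 encodes a protein that binds Rps19 and is no part of the ribosome, and it stood at 0.17 (p = 0.475) in the authors' deposited table. The row named Rpl24 was not at the Rpl24 gene: its 11 exons on chromosome 16, from 55973883 to 56008913 on the plus strand, share 100 percent of their bases with exons of Zbtb11, which encodes a zinc finger protein. A second row, named RPL24 in capitals and so outside the naming rule, spans 55966275 to 55971435 and matches the Rpl24 gene. It stood at -0.11 (p = 0.637) in the authors' deposited table, and the row at Zbtb11 at -0.12 (p = 0.623). The 76 genes of the 2 subunits had a median of 0.14 in the authors' deposited table over the 73 with a p-value, 62 of them positive, and with RPL24 added the median was 0.13.

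Proteins of the small subunit stood closer to 0 than those of the large one. Of 29 tested 40S genes, 21 were positive and 8 negative, with a median of 0.09 in the authors' deposited table. Of 44 tested 60S genes, 41 were positive and 3 negative, with a median of 0.15 in the authors' deposited table. None of either was called, and the difference between the subunits was not tested.

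Rps2, a 40S protein near the entry of the mRNA channel, had the highest 40S value, 0.48 in the authors' deposited table, a ratio of 1.40 (p = 0.179, Benjamini-Hochberg adjusted p = 0.808). Its model spans 24718116 to 24721929 on chromosome 17 (GRCm38, plus strand). Rps26, which sits where mRNA leaves the subunit, followed at 0.33 (p = 0.283) and Rps27a, made as a fusion with ubiquitin, at 0.26 (p = 0.424) in the authors' deposited table. Rpsa, first known as a laminin receptor precursor, stood at 0.24 (p = 0.556) and Rps18 at 0.21 (p = 0.387) in the authors' deposited table. Rps6, the substrate from which the S6 kinases take their name, stood at 0.11 (p = 0.783) in the authors' deposited table.

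At the other end stood Rps27, a small zinc-binding protein of the 40S subunit, at -0.39 in the authors' deposited table, a ratio of 0.764 (p = 0.226, Benjamini-Hochberg adjusted p = 0.837). Its model is the shortest of the family at 255 bases and lies on chromosome 3 from 90212725 to 90213615 (minus strand). The next lowest 40S genes were Rps21 at -0.18 (p = 0.543) and Rps28 at -0.12 (p = 0.739) in the authors' deposited table. The distance of Rps27 from them was not tested. The remaining negative 40S values were those of Rps14, Rps10, Rps20, Rps23 and Rps9, between -0.10 and -0.02 in the authors' deposited table.

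Among 60S genes Rpl10a, whose protein forms the mobile L1 stalk beside the exit site for tRNA, was highest at 0.45 in the authors' deposited table, a ratio of 1.37 (p = 0.141, Benjamini-Hochberg adjusted p = 0.775). Rpl18 (0.37, p = 0.303), Rpl28 (0.35, p = 0.323), Rpl41, the shortest ribosomal protein (0.35, p = 0.148), and Rpl15 (0.34, p = 0.186) followed in the authors' deposited table. Among the rest were Rpl14 (0.31) and Rpl29 (0.30), with Rpl37a (0.02) and Rpl10 (0.02) nearest to 0 from above, in the authors' deposited table. The 3 negative 60S values were Rpl23a, at the rim of the exit tunnel (-0.13, p = 0.723), Rpl34 (-0.04) and Rpl22 (-0.03) in the authors' deposited table.

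Functional parts of the large subunit gave similar small values. The P proteins, which form the stalk that recruits elongation factors, stood at 0.15 for Rplp0, 0.16 for Rplp1 and 0.08 for Rplp2 in the authors' deposited table (p = 0.698, 0.594 and 0.806). Rpl5 and Rpl11, which carry 5S RNA into the ribosome and, when free, bind the p53 regulator Mdm2, stood at 0.14 and 0.28 in the authors' deposited table (p = 0.685 and 0.441). Of 9 proteins that line or surround the exit tunnel, 7 were positive with a median of 0.16 in the authors' deposited table and none was called. Mutations of some ribosomal protein genes cause Diamond-Blackfan anaemia, a failure of red cell production; of the 19 such genes listed, 16 had a p-value, 13 of these were positive, none was called and the median was 0.15 in the authors' deposited table. The other 57 subunit genes had a median of 0.12 in the authors' deposited table.

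Several members are used as reference genes in PCR. Rplp0 and Rps18 are given above; Rpl32 stood at 0.26 (p = 0.476) and Rpl13a at 0.07 (p = 0.820) in the authors' deposited table. The Rpl13a row is not a clean measure of its gene, because its 11 exons run over several annotated genes: 58.5 percent of its bases are exonic in Rpl13a and 28.2 percent in Flt3l, a cytokine gene, while exons of the annotated gene Gm45713 cover 48.7 percent and overlap both. All 4 stood above the median of all rows (-0.09), and none was called.

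Rps15a, Rps19 and Rpl35a had no p-value, and their folds were 0.24, 0.14 and 0.13 in the authors' deposited table. Rows without a p-value made up 5.78 percent of the table. All 3 genes are on the Diamond-Blackfan anaemia list, and the sources used here give no reason for the missing p-values.

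Copies of ribosomal protein genes had a wider spread of values than the subunit genes, of which all 73 with a p-value lay within 0.5 of 0. The 11 copies ran from -0.81 to 0.50 in the authors' deposited table, with 7 positive, 4 negative and none called; 6 are protein-coding in GENCODE M21 and 5 are processed pseudogenes despite their names. Rpl39l, known from testis, stood at -0.81 (p = 0.126, Benjamini-Hochberg adjusted p = 0.762) in the authors' deposited table, and Rpl39 at 0.20. Rpl3l, known from heart and skeletal muscle, stood at -0.69 (p = 0.173, Benjamini-Hochberg adjusted p = 0.805) in the authors' deposited table, and Rpl3 at 0.15. These 2 tissue-restricted copies held the lowest values of all 89 rows. Their levels in mast cells were not analysed here, so whether they are expressed at all is not shown.

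Rpl22l1, the close relative of the RNA-binding protein Rpl22, had the highest value of all 89 rows, 0.50 in the authors' deposited table, a ratio of 1.41 (p = 0.212, Benjamini-Hochberg adjusted p = 0.830). It lies on chromosome 3 from 28805436 to 28807352 (plus strand), and Rpl22 stood at -0.03 (p = 0.890) in the authors' deposited table, so the copy was 0.52 log2 units above it. Rps27l, which responds to p53, stood at 0.15 and was 0.54 units above Rps27 in the authors' deposited table. Rpl36al, a single-exon coding copy of the X-linked Rpl36a, stood at 0.39 with p = 0.123, the smallest p in the family, and Rpl36a at 0.19 in the authors' deposited table. Rpl7l1 stood at 0.26 (p = 0.159) and Rpl7 at 0.09 in the authors' deposited table. No difference between a gene and its copy was tested, since the table gives no error for one.

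Of the 5 processed copies, 3 stood within 0.05 log2 units of their gene. Rps3a2 and Rps3a3 stood at 0.03 and 0.04 beside Rps3a1 at 0.04 in the authors' deposited table. Rps12l1 stood at 0.13 and Rps12l2 at -0.32 beside Rps12 at 0.08 in the authors' deposited table. Rps4y2, which GENCODE M21 names Rps4l, stood at -0.42 (p = 0.385) and the X-linked Rps4x at 0.07 in the authors' deposited table.

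The same comparison was made across the 183 pseudogene rows that the naming rule leaves out. Of these, 179 have a single exon and 167 had a p-value, 122 of them positive, with a median of 0.11 in the authors' deposited table and none called. Among pseudogene rows of any gene, 2216 had a p-value and 56.7 percent were positive, with a median of 0.05 in the authors' deposited table. Of the ribosomal protein pseudogene rows, Rps15a-ps8 alone had an unadjusted p under 0.05, at -0.90 in the authors' deposited table (p = 0.0356). For 47 subunit genes with a p-value of their own and at least 1 such pseudogene row, the gene's value and the median of its pseudogene rows correlated across genes with Pearson's r = 0.61 and Spearman's rho = 0.64. Genes are not independent replicates, and reads that match both a gene and its pseudogenes would link these values; the sources used here do not say how such reads were counted. Rps2 stood at 0.48 and its 5 pseudogene rows at a median of 0.37, and Rpl10a at 0.45 and its 2 at 0.28, in the authors' deposited table.

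**Figure D2:**
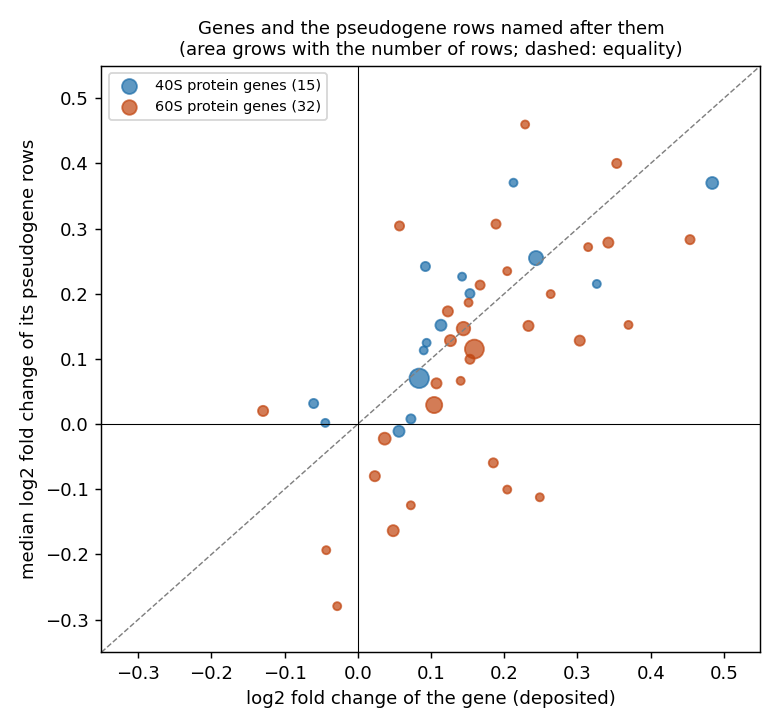
Log2 fold change of 47 ribosomal protein genes (horizontal axis) and the median log2 fold change of the pseudogene rows named after each (vertical axis), from the authors' deposited table; blue points are 40S and orange points 60S genes, and larger points have more pseudogene rows. Points scatter around the dashed line of equality, 21 of them above it.

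Genes with pseudogene rows are the members most exposed to shared reads. The median was 0.15 for the 48 such subunit genes that had a p-value, 43 of them positive, in the authors' deposited table. It was 0.08 for the 25 without a row named as their pseudogene, 19 of them positive, in the authors' deposited table. These 25 include Rps3a1 and Rps4x, whose processed copies Rps3a2, Rps3a3 and Rps4y2 are not named as pseudogenes. The part that shared reads play in these medians was not tested. Some models also overlap a coding gene on the other strand in over 20 percent of their bases: Rpl35 (Wdr38), Rpl23a (Tlcd1), Rpl31 (Tbc1d8), Rps25 (Ccdc84) and Rpl5 (Fam69a). Libraries kept the strand, but the sources used here do not say whether counting used it, so these 5 values are uncertain.

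Many ribosomal protein genes carry small nucleolar RNAs, which guide the chemical modification of ribosomal RNA, in their introns. By GENCODE M21, 30 of the 76 subunit genes hold at least 1 such gene, and in 14 of them the deposited model counts it as exon. These 14 had a median of 0.11 and the others, with a p-value, a median of 0.15 in the authors' deposited table. Across 73 subunit genes, fold and model length correlated with Pearson's r = 0.17 and Spearman's rho = 0.06, a description over genes that share their libraries. The 4 X-linked genes, Rpl10, Rpl36a, Rpl39 and Rps4x, were all positive with a median of 0.13 in the authors' deposited table, and the 69 autosomal ones had a median of 0.14. The 76 genes lie on 19 chromosomes, 14 of them on chromosome 7.

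Promoter windows of 300 bases, from 250 before to 50 after the RefSeq start, were at hand for 56 of the 76 subunit genes and for 12979 protein-coding rows in all. A C followed by at least 7 pyrimidines, searched on the transcribed strand in the 70 bases from 20 before to 50 after the start, was present in 43 of the 56 (76.8 percent) and in 19.6 percent of all windows. The word CTCTTT, searched likewise and often part of such a run, was present in 32.1 percent of the 56 and 2.12 percent of all. The word CCGGAAG, a core recognised by ETS factors such as GABP, was searched on both strands of the whole window and was present in 23 of the 56 (41.1 percent) and in 14.4 percent of all. A match describes the letters and does not show that a factor binds there.

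Within the family the medians with and without each word differed by at most 0.1 for the 4 patterns given here. Subunit genes with the pyrimidine run had a median of 0.14 (40 genes) and those without it 0.09 (13 genes) in the authors' deposited table. Genes with CCGGAAG had a median of 0.19 (23 genes) and those without it 0.09 (30 genes) in the authors' deposited table. For CTCTTT the medians were 0.13 with it (16 genes) and 0.13 without it (37 genes), and for AAGATGG, searched on both strands, 0.12 (6 genes) and 0.13 (47 genes), in the authors' deposited table. Among all protein-coding windows the pyrimidine run went with no higher value, the medians being -0.09 with it and -0.08 without it in the authors' deposited table. These splits were chosen after the values were seen and carry no test.

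Some ribosomal proteins have names outside the rule. Fau, a fusion of a ubiquitin-like protein with a 40S protein, stood at -0.02 (p = 0.945) in the authors' deposited table. Gnb2l1, now called Rack1, a signalling scaffold on the 40S subunit, stood at 0.22 (p = 0.531) in the authors' deposited table.

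Other lists of translation genes had medians from 0.06 to 0.19. None of the 249 tested genes on these lists was called at a Benjamini-Hochberg adjusted p under 0.05 over all rows, and 22 had an unadjusted p under 0.05, 20 higher and 2 lower, in the authors' deposited table. Over all rows 0.411 percent were called and 7.92 percent had an unadjusted p under 0.05. The 8.84 percent of these genes at that level is near the background in total. By direction the counts were uneven, 20 higher and 2 lower, where 3.87 percent of all rows were higher and 4.05 percent lower. This difference was not tested. Of 64 ribosome biogenesis genes, 56 were positive with a median of 0.19, and 9 had an unadjusted p under 0.05, all of them higher, where 3.87 percent of all rows were at that level and higher in the authors' deposited table. The highest was Gar1, a protein of the pseudouridylation particle, at 0.73 (p = 0.0231), with Dkc1, the enzyme of that particle, at 0.37 (p = 0.0272) in the authors' deposited table. Ncl, which encodes nucleolin, stood at 0.54 (p = 0.00866, Benjamini-Hochberg adjusted p = 0.322), Fbl, the rRNA methyltransferase, at 0.52 (p = 0.0299) and Npm1, a nucleolar chaperone, at 0.39 (p = 0.223) in the authors' deposited table. Sbds, a factor in the last step of 60S maturation, was lowest at -0.41 (p = 0.119), followed by Las1l at -0.15 (p = 0.549), in the authors' deposited table.

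Initiation factors were positive in 32 of 36 genes with a median of 0.18 in the authors' deposited table, and 5 had an unadjusted p under 0.05, all higher, where 3.87 percent of all rows were at that level and higher. Eif4e, the cap-binding protein, stood at 0.50 (p = 0.00838, Benjamini-Hochberg adjusted p = 0.316) and Eif2s3x, a subunit of the factor that brings the initiator tRNA, at 0.54 (p = 0.0107, Benjamini-Hochberg adjusted p = 0.352) in the authors' deposited table. Eif4a2, an RNA helicase, was lowest at -0.23 (p = 0.257), and Eif2b2 stood at -0.04 in the authors' deposited table. Of 14 genes listed under elongation and termination factors, 10 were positive with a median of 0.12 in the authors' deposited table. Eif5a (0.52, p = 0.0320) and Eef1e1 (0.51, p = 0.0864) were highest on this list, and Gspt2 (-0.79, p = 0.0987) and Eef1a2 (-0.21, p = 0.666) lowest, in the authors' deposited table.

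Other mRNAs known for a TOP motif, a list that also holds Fau and Gnb2l1, lay on both sides of 0. Of 20 tested, 12 were positive with a median of 0.14 in the authors' deposited table. Eef1a1, which encodes the factor that delivers tRNA, stood at -0.01 (p = 0.980), Eef2 at 0.11 (p = 0.732) and Tpt1 at -0.02 (p = 0.954) in the authors' deposited table. Hnrnpa1, a splicing factor, was highest at 0.40 (p = 0.0174, Benjamini-Hochberg adjusted p = 0.440), and Gas5, a noncoding host of small nucleolar RNAs, lowest at -0.10 (p = 0.682) in the authors' deposited table.

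**Figure D3:**
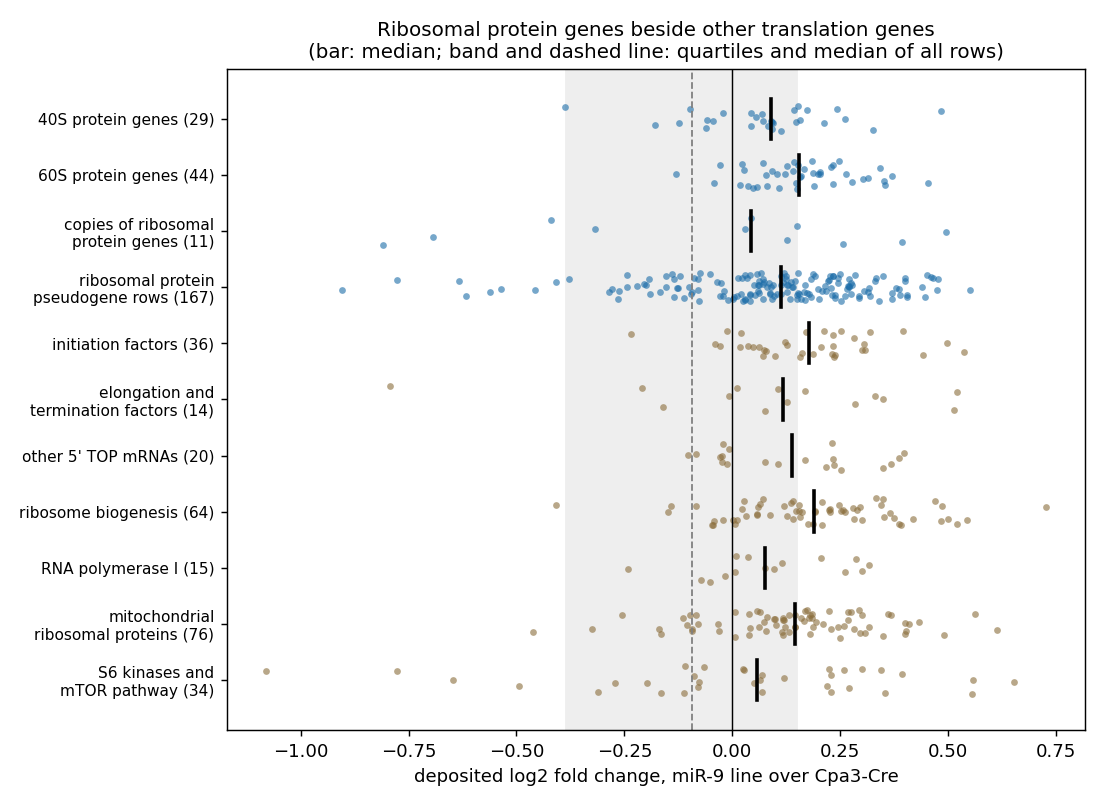
Log2 fold in the authors' deposited table (horizontal axis, miR-9 line over Cpa3-Cre) for rows with a p-value, 1 point per gene, in 4 groups of ribosomal protein rows (blue) and 7 lists of other translation genes (brown), with the number of genes in brackets and a bar at each median. The grey band spans the quartiles of all rows (-0.38 to 0.15) and the dashed line is their median; every group's median lies right of 0.

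Genes of RNA polymerase I, which transcribes ribosomal RNA, had a median of 0.08 in the authors' deposited table over 15 genes, 11 of them positive, from Znrd1 at -0.24 to Polr1d at 0.32. Proteins of the mitochondrial ribosome, a separate machine encoded in the nucleus, gave a median of 0.15 over 76 genes, 62 of them positive, in the authors' deposited table. Mrpl18 was highest at 0.61 (p = 0.00548, Benjamini-Hochberg adjusted p = 0.253) and Mrps18c lowest at -0.46 (p = 0.197) in the authors' deposited table. Their quartiles were 0.05 and 0.27, a wider span than that of the cytosolic proteins, in the authors' deposited table.

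The kinases and regulators upstream of TOP mRNAs were mixed. Of 34 genes of the S6 kinase and mTOR list 20 were positive with a median of 0.06 in the authors' deposited table. Mtor stood at 0.03 (p = 0.881), Rps6kb1, the main S6 kinase, at 0.07 (p = 0.722) and Larp1 at 0.35 (p = 0.0637) in the authors' deposited table. The translation repressors Eif4ebp1 and Eif4ebp2 stood at 0.35 (p = 0.326) and 0.26 (p = 0.268) in the authors' deposited table. Myc, a transcription factor that drives ribosome production, stood at 0.55 (p = 0.0122, Benjamini-Hochberg adjusted p = 0.376) in the authors' deposited table. Ddit4, an inhibitor of mTOR, stood at -0.78 (p = 0.0116, Benjamini-Hochberg adjusted p = 0.364) and Rps6ka6, a kinase of the RSK family, at -1.08 (p = 0.0205, Benjamini-Hochberg adjusted p = 0.462) in the authors' deposited table, the 2 lowest of the list. Rps6ka2 (0.65, p = 0.104) and Sesn3 (0.56, p = 0.140) were its highest in the authors' deposited table. None of these passed the test.

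**Figure D4:**
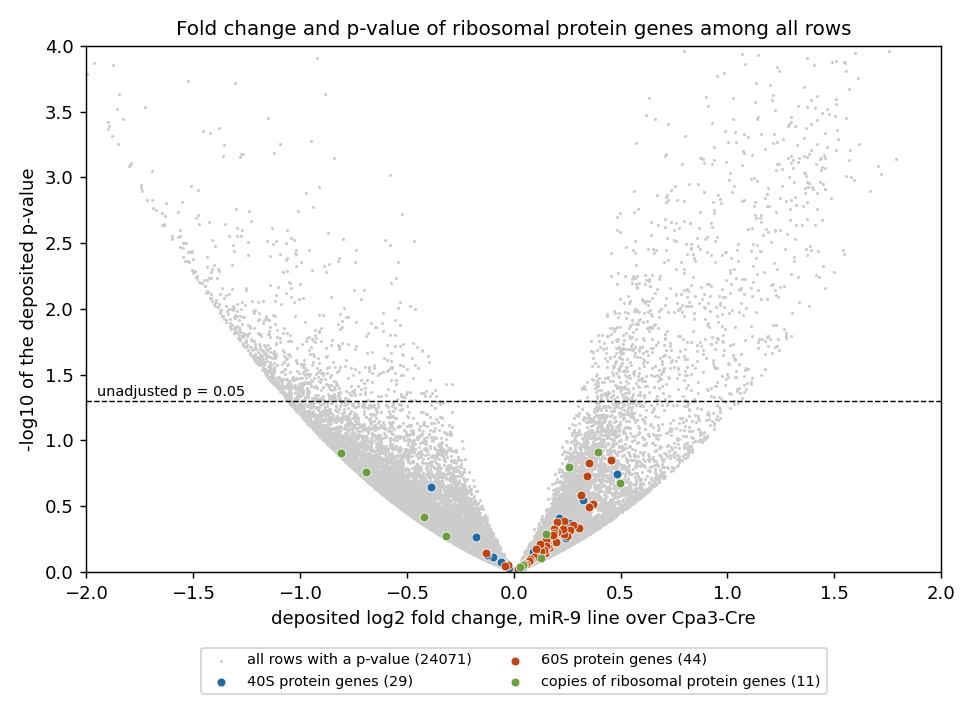
Log2 fold change (horizontal axis) and -log10 of the p-value (vertical axis) in the authors' deposited table, with all 24071 rows with a p-value in grey (72 lie outside the axes) and 40S genes, 60S genes and copies in colour. The dashed line marks an unadjusted p of 0.05; all 40S, 60S and copy points lie below it.

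The cell type was checked through its markers. All 8 mast cell markers had a p-value of the authors' deposited table. Gata2 (-0.06), Kit (-0.04), Hdc (0.03), Mitf (0.05), Fcer1a (0.09) and Ms4a2 (0.10) stood near 0. Cpa3 stood at 0.42 (p = 0.0983, Benjamini-Hochberg adjusted p = 0.729) in the authors' deposited table, and the tryptase gene Tpsb2 rose (1.60, Benjamini-Hochberg adjusted p = 0.0149). None of 6 neutrophil, 5 monocyte and 2 eosinophil marker rows had a p-value of the authors' deposited table, and 1 of 3 basophil markers did. The marker rows without a p-value ran from Emr1 at -0.71 to Prss34 at 0.52 in the authors' deposited table. Because no reason for a missing p-value is given, its absence does not show that such cells were absent. The 3 lymphocyte markers stood between -0.53 and -0.52, and the globin genes Hba-a1 and Hbb-bs at 0.82 (p = 0.124) and 1.09 (p = 0.0405, Benjamini-Hochberg adjusted p = 0.587), in the authors' deposited table. What part other cells have in the ribosomal protein values was not tested.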

How the data were processed

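RNA-seq of 2 Cpa3-Cre and 3 Cpa3-Cre;miR-9∆fl/∆fl samples was deposited as 1 table. The tools named per the submitters' processing notes are DESeq, Cuffdiff, DESeq2, STAR and HTSeq, and the builds mm10 and GRCm38; the sources used here give no versions, roles or filters. Per the file headers, each gene has a p-value and a fold that the authors deposited both as log2 and as a signed ratio; the sources do not say whether folds were shrunken, which would make them smaller. The table's 5 columns per library match no sample's labels and were not used, so no model was refitted, and no depth or precision per sample was computed. Benjamini-Hochberg adjustment (statsmodels 0.14.6, Python 3.11.15) covered all 24071 deposited p-values and was tested on simulated data. Gene models were compared with GENCODE M21 (exons, small nucleolar RNAs) and RefSeq GRCm38.p6 (biotype, promoter windows). Promoter windows for 20 of 76 subunit genes were not used here. Named genes were the 8 highest and 8 lowest members, any called, fixed reference, stalk and 5S genes, copies with their parent genes, and per list the 2 highest, the 2 lowest and fixed genes; others named were chosen after their values were seen. Members and lists were chosen with earlier results of these data known. A gene that the rule names is not reported here.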

Additional observations from a re-analysis of the deposited data

How the results depend on the processing

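The count of ribosomal protein genes called was 0 under each of 5 other rules: adjusted p under 0.10, unadjusted p under 0.05 or 0.0001, adjustment over protein-coding rows only, and Benjamini-Yekutieli. The median log2 fold change of 0.13 lay within 0.05 of that value under 8 of 10 alternatives. Its lowest was 0.08, without members that have rows named as their pseudogenes. Centring on the median of all rows (-0.09) gave 0.22, as did centring on that of protein-coding rows (0.22), and put 76 of 86 members above 0. Under that centring 6 values changed sign: Rps9 (0.071), Rpl22 (0.064), Rpl34 (0.049), Rps23 (0.048), Rps20 (0.035) and Rps10 (0.032). The other translation lists held 0 called genes at an adjusted p under 0.10 too and 22 at an unadjusted p under 0.05. Of the alternatives for the median, 4 were chosen after seeing the data: only subunit genes at their own position, rows without a p-value included, no model with a small nucleolar RNA gene in its exons, and none with opposite-strand overlap. No paired analysis was possible because the values per library carry no sample names; leaving out samples, DESeq2 and filters on low values were not run for the same reason. Depth behind each gene was not analysed here, so scarce genes such as copies are not told from abundant ones.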

Other observations

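The word CCGGAAG also went with higher values over all protein-coding rows, which include the subunit genes. Among protein-coding rows with a promoter window and a p-value, the 1806 with the word on either strand had a median of 0.03 (log2 fold) in the authors' deposited table, and the 10305 without it a median of -0.12. In the ribosome biogenesis list, 20 of 55 windows (36.4 percent) held the word, where 14.4 percent of all windows did. Within that list the medians were close, 0.19 with the word (20 genes) and 0.18 without it (35 genes), in the authors' deposited table. The word TATAAA, searched on the transcribed strand, went with lower values over all rows: the 717 rows with it had a median of -0.25 and the 11394 without it -0.07 in the authors' deposited table. In the subunit genes the order was the opposite, 0.19 with the word (5 genes) and 0.11 without it (48 genes), as it was in the biogenesis list, 0.26 (2 genes) and 0.16 (53 genes), in values of the authors' deposited table. Both splits were made after the data were seen and were not tested; promoters with these words differ in other properties, which were not compared here.

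The row at Zbtb11 that carries the name Rpl24 is a naming fault that a list made by symbol would take as a ribosomal protein gene. Both rows stood near -0.1 in the authors' deposited table (-0.12 and -0.11), and adding the true Rpl24 row moved the subunit genes' median from 0.14 to 0.13.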
